A study of Homo sapiens with 6 samples.

Results

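Acetylation of histone H3 at lysine 27 (H3K27ac), a mark of active enhancers and promoters, was mapped by ChIP-seq in neurons of the human iPSC line KOLF2.1J, and the 500 stitched regions with the most H3K27ac signal are described here. They were chosen from the authors' pooled peak list in 3 steps. Peaks, each a row of the list, were kept if they lay more than 1 kb from both ends of every protein-coding gene, which left 59310 of 78639 rows on 23 chromosomes. Kept rows separated by gaps of at most 12.5 kb were stitched into 24520 regions. Each region was scored by its signal sum, the width of each row times its fold enrichment, added over its rows and given in fold enrichment × kb. The 500 regions with the highest signal sums (2.04% of all) are the members. The choice follows the practice of calling super-enhancers, but 31 members held a single row and 219 held an annotated transcription start, so the text calls them members or stitched regions.

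The neurons were grown from neural progenitor cells (NPCs) that the labels say were differentiated with the BrainPhys protocol. H3K27ac, CTCF and input chromatin had 2 libraries each. All groups share the same line and culture, with no treatment or genotype contrast, and the labels do not say whether the 2 libraries came from separate cultures. The wider study set out to nominate regulatory elements of MAPT, the gene for the protein tau. Values of single replicates were not analysed here, because each deposited list is 1 list for both replicates. There is therefore no replicate error for any value below, the read depth is unknown, and no p-value is given. Intervals on shares are 95% Wilson intervals and intervals on densities are exact Poisson intervals, and both cover counting error only. In a bulk culture, strong acetylation in few cells and weaker acetylation in many cells cannot be told apart.

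Enhancers are DNA segments bound by transcription factors that recruit histone acetyltransferases, and H3K27ac marks their active state as well as that of promoters. Long runs of strongly acetylated enhancers, often called super-enhancers, are known to lie near genes that set a cell's identity, among them transcription factors and microRNAs. In the neural lineage such genes include SOX2, which maintains neural progenitors, and the genes of miR-9, a brain-rich microRNA that restrains progenitor genes. CTCF is a zinc-finger protein that, with cohesin, anchors chromatin loops and separates domains.

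No genome was used here, so the sequences shown are those RefSeq gives for microRNAs and for promoters of build GRCh38.p14, the build of the lists being hg38. The members held 40 of the 1911 microRNA genes of the gene table, of which 31 could be matched to a hairpin, 16 of these inside an H3K27ac row. The sequences below are the mature microRNAs of the members that hold well-known neural or developmental microRNAs, with the seed (bases 2 to 8), which pairs with target RNAs, in capitals.
miR-9-5p: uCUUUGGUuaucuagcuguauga
miR-9-3p: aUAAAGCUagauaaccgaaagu
miR-125b-5p: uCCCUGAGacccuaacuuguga
let-7i-5p: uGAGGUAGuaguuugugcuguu
miR-21-5p: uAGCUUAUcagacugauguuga
miR-219a-5p: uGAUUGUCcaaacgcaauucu

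miR-9 was the only microRNA of the matched hairpins with more than 1 gene among the members. miR-124 also had more than 1, MIR124-2 and MIR124-1, but these were not among the matched hairpins. All 3 of its genes lay in members and inside a row. MIR9-2 (chr5:88666853-88666939) was in the member of rank 8, in a row of fold enrichment 20.8. MIR9-3 (chr15:89368017-89368106) was in the member of rank 64, in a row of fold enrichment 24.3. MIR9-1 (chr1:156420341-156420429) was in the member of rank 125, in a row of fold enrichment 9.36. These are the precursors of the same 2 mature sequences, with seeds CUUUGGU and UAAAGCU. MIRLET7I (chr12:62603686-62603769, rank 114) and MIR125B1 (chr11:122099757-122099844, rank 89), which belong to families involved in developmental timing, also lay inside rows, of fold enrichment 52.7 and 25.5. MIR21 (chr17:59841266-59841337, rank 173), a growth-associated microRNA, lay 798 bp from a row of fold enrichment 31.5. MIR219A2 (rank 356), known from the oligodendrocyte lineage, lay 1492 bp from a row of fold enrichment 2.07. MIR124-2 (rank 37) and MIR124-1 (rank 321), genes of the neuronal microRNA miR-124, were in members as well. MIR1915 (rank 17) and MIR130A (rank 167) were inside rows of fold enrichment 32.4 and 40.8. The member spans held 2.79 microRNA genes per Mb, beside 1.60 per Mb in the spans of all other stitched regions and 2.28 per Mb in ranks 501 to 1000.

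Promoters of the host transcripts of miR-9 and let-7i also overlapped rows of the members. The next sequences are RefSeq promoter windows, 250 bases before to 50 bases after a start, printed 5′ to 3′ in the direction of the gene. They are shown because each window overlaps a row of a member. They belong to the host RNAs of miR-9 and let-7i, the noncoding RNA MALAT1 and the transcription factor gene KLF7. An overlap of the window does not require the start itself to lie in the row. At MIR9-1HG the row ends at chr1:156421750, inside the window but short of the start. Capitals mark matches, on either strand, to 4 motifs. These are the GC box, with the letters GGGCGG, which SP factors bind, and the CCAAT box, which NF-Y binds. The other 2 are the TATA box of core promoters, searched as TATAAA, and the motif of SOX factors, searched as ACAAAG.
MIR9-1HG, chr1:156421720-156422019, minus strand: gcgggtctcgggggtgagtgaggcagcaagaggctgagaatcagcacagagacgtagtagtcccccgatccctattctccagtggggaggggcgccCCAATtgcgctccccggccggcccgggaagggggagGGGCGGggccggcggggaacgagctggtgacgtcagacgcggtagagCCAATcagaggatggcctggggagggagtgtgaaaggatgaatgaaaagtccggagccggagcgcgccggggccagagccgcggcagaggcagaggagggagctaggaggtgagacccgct
MIR9-2HG, chr5:88673290-88673589, minus strand: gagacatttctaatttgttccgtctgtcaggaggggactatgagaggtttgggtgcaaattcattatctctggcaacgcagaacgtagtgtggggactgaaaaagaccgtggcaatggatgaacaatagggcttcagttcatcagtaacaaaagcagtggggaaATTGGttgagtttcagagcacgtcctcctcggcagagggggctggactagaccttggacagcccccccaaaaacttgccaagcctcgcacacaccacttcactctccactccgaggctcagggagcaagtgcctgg
MIR9-3HG, chr15:89362259-89362558, plus strand: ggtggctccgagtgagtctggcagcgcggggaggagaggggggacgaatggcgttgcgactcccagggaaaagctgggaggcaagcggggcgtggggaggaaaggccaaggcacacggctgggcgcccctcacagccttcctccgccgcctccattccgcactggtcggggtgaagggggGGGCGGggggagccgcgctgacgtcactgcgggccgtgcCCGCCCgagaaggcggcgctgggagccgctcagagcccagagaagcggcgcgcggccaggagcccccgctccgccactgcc
MIRLET7IHG, chr12:62602493-62602792, plus strand: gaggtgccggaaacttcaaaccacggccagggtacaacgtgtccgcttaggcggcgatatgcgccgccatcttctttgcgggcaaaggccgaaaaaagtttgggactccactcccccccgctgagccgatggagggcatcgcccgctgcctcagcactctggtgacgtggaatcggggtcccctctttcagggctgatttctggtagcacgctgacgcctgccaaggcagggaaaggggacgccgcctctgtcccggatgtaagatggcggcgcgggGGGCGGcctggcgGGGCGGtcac
MALAT1, chr11:65497488-65497787, plus strand: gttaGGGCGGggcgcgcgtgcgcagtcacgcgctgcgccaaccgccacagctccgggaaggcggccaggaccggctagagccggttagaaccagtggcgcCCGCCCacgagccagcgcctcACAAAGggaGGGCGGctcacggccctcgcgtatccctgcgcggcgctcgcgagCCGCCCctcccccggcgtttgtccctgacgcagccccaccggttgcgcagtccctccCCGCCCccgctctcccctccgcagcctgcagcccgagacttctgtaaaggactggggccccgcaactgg
KLF7, chr2:207166807-207167106, minus strand: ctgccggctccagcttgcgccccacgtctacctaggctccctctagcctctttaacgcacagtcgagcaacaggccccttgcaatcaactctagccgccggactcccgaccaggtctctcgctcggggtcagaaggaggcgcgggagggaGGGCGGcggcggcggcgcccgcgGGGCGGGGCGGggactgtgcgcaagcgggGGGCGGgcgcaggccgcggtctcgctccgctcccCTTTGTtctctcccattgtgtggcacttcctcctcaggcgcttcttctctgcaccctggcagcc

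The windows differ from each other. The MIR9-2HG window held 8 CG dinucleotides, 1 CCAAT box and no GC box. The MIR9-3HG window held 31 CG dinucleotides and 2 GC boxes. The MALAT1 window held 37 CG dinucleotides, 5 GC boxes and 1 SOX match, and that of KLF7 held 30, 4 and 1. In all, 390 promoter windows overlapped a row of a member. Their median was 18.5 CG dinucleotides per window, below the 26 of the 15519 windows in other H3K27ac rows and above the 4 of the 19052 windows in no row. A GC box was found in 52.6% of the member windows, against 68.8% of the windows in other rows and 45.0% of all 34961 windows. The SOX motif was found in 22.8%, against 11.8% and 16.1%. TATAAA was found in 8.72%, against 5.11% and 11.5%, and CCAAT in 27.7%, against 34.5% and 34.6%. A few further motifs were searched on both strands. The AP-1 site TGANTCA was in 7.69% of member windows, against 4.23% in other rows and 7.68% overall. The cyclic AMP response element TGACGTCA was in 2.31%, against 3.22% and 1.85%, and the octamer ATGCAAAT was in 1.79%, against 1.33% and 1.77%. Windows of the same gene can overlap, GC boxes can overlap each other, and base composition differs between the sets, whose part in these shares was not tested. Members hold no row within 1 kb of a protein-coding gene end, while the other H3K27ac rows here include those the rule left out. The sets thus differ in their kinds of start by the rule, and the part of this in the differences was not tested. A match is a run of letters and not a bound site.

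The signal sums of the members ran from 94.7 to 767, with a median of 135. This is the quantity that chose them, and it is given as a description. The members held 27.4% of the signal summed over all stitched regions, in 15.1% of the covered length, and ranks 1 to 50 held 6.41%. The curve has no step at rank 500. Just inside were regions at MEST, an imprinted gene (rank 498, 94.9), KIF1B, a kinesin motor gene (rank 499, 94.7), and CELSR1, a planar polarity cadherin gene (rank 500, 94.7). Just outside were RSRP1 (rank 501, 94.7), TMEM184B (rank 502, 94.6) and a region 1376 kb from PIK3C3, the nearest gene (rank 503, 94.4). The point at which the scaled rank curve has a slope of 1, often used to call super-enhancers, lay at a signal sum of 48.0, with 1439 regions above it. The 500 members are thus the upper part of a longer tail.

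**Figure D1:**
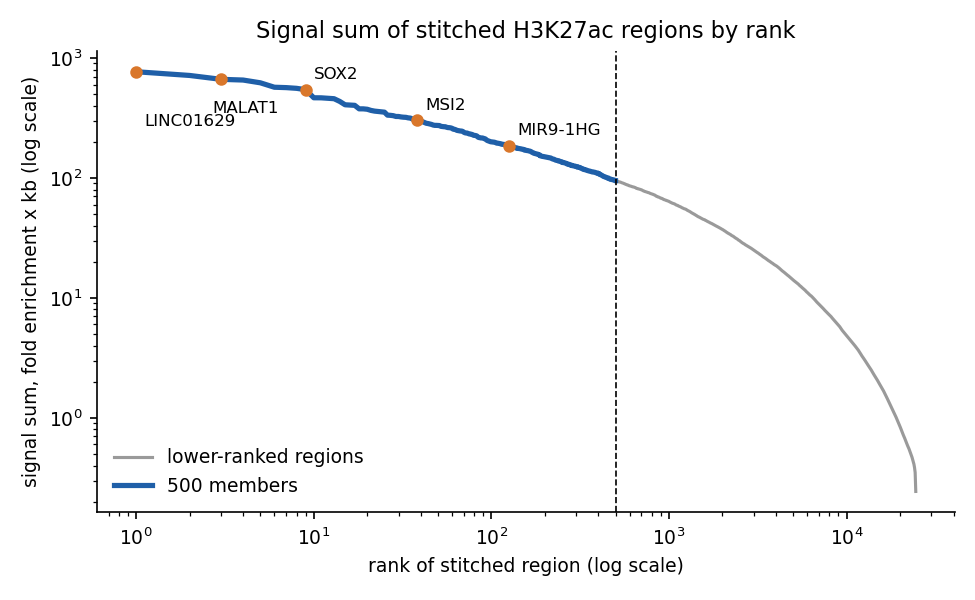
Signal sum of each stitched region (fold enrichment × kb, log scale) against its rank (log scale), with the 500 members in blue, lower-ranked regions in grey and the limit at rank 500 dashed; 5 members are named by a gene. The curve passes smoothly through rank 500, at a signal sum of 94.7.

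The region with the highest signal sum, 767, was chr14:76900713-76962743. It holds the noncoding RNA gene LINC01629 and no protein-coding gene, the nearest being LRRC74A at 30.4 kb. Its 19 rows covered 47.6% of a span of 62.0 kb, and a single row of 11437 bp (chr14:76916458-76927894, fold enrichment 46.5) held 69.3% of the signal sum. Rank 2 (chr17:47970566-48025103, 714) overlapped CDK5RAP3, a gene of the UFM1 protein-modifier pathway, with 20 rows. Rank 3 (chr11:65476545-65509078, 664) held MALAT1, an abundant nuclear noncoding RNA, with the noncoding genes ENEMAL and LINC02736. Rows that overlap the promoter windows of these 3 RNAs made up 81.6% of its signal sum. The MALAT1 window also reaches into a neighbouring row that ends before the MALAT1 start, and that row is included. Rank 4 (chr18:3592269-3625473, 654) lay in DLGAP1, a gene of a postsynaptic scaffold protein, and rows at starts of DLGAP1-AS1 and DLGAP1-AS2 made up 84.7%.

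Rank 5 (chr17:77372375-77494966, 621) lay in SEPTIN9, which encodes a filament-forming cytoskeletal GTPase, and held 38 rows over 122.6 kb. Rank 6 (chr9:129393889-129503656, 570) overlapped LINC00963. Rank 7 (chr17:17685389-17799645, 566) lay in RAI1, a transcriptional regulator altered in Smith-Magenis syndrome, with 44 rows and no row over a fold enrichment of 27. Rank 8 (chr5:88656415-88685517, 558) was the MIR9-2HG region of 12 rows, 31.6 kb from MEF2C, a transcription factor gene of neurons. Its strongest row, which holds a start, made up 64.0% of the signal sum. Rank 9 (chr3:181698439-181736671, 544) surrounded SOX2. There, 1 row of 12577 bp (fold enrichment 41.0) held 94.8% of the signal sum, the widest row in any member, and 2 further rows at the ends of SOX2, with fold enrichments of 35.4 and 29.3, were left out by the rule. Rank 10 (chr2:207106830-207167879, 466) lay in KLF7, a Krüppel-like factor gene of axon growth, and rows at KLF7 starts made up 81.3%. The 10 regions thus differ in make-up: 1 row near SOX2, many rows in RAI1, and transcript starts at, among others, MALAT1 and DLGAP1. With rows within 1 kb of RefSeq starts left out, the regions at LINC01629 (765), SOX2 (544) and CDK5RAP3 (524) ranked highest. The others named here, including those in SEPTIN9 and RAI1, were then not among the 10 highest.

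**Figure D2:**
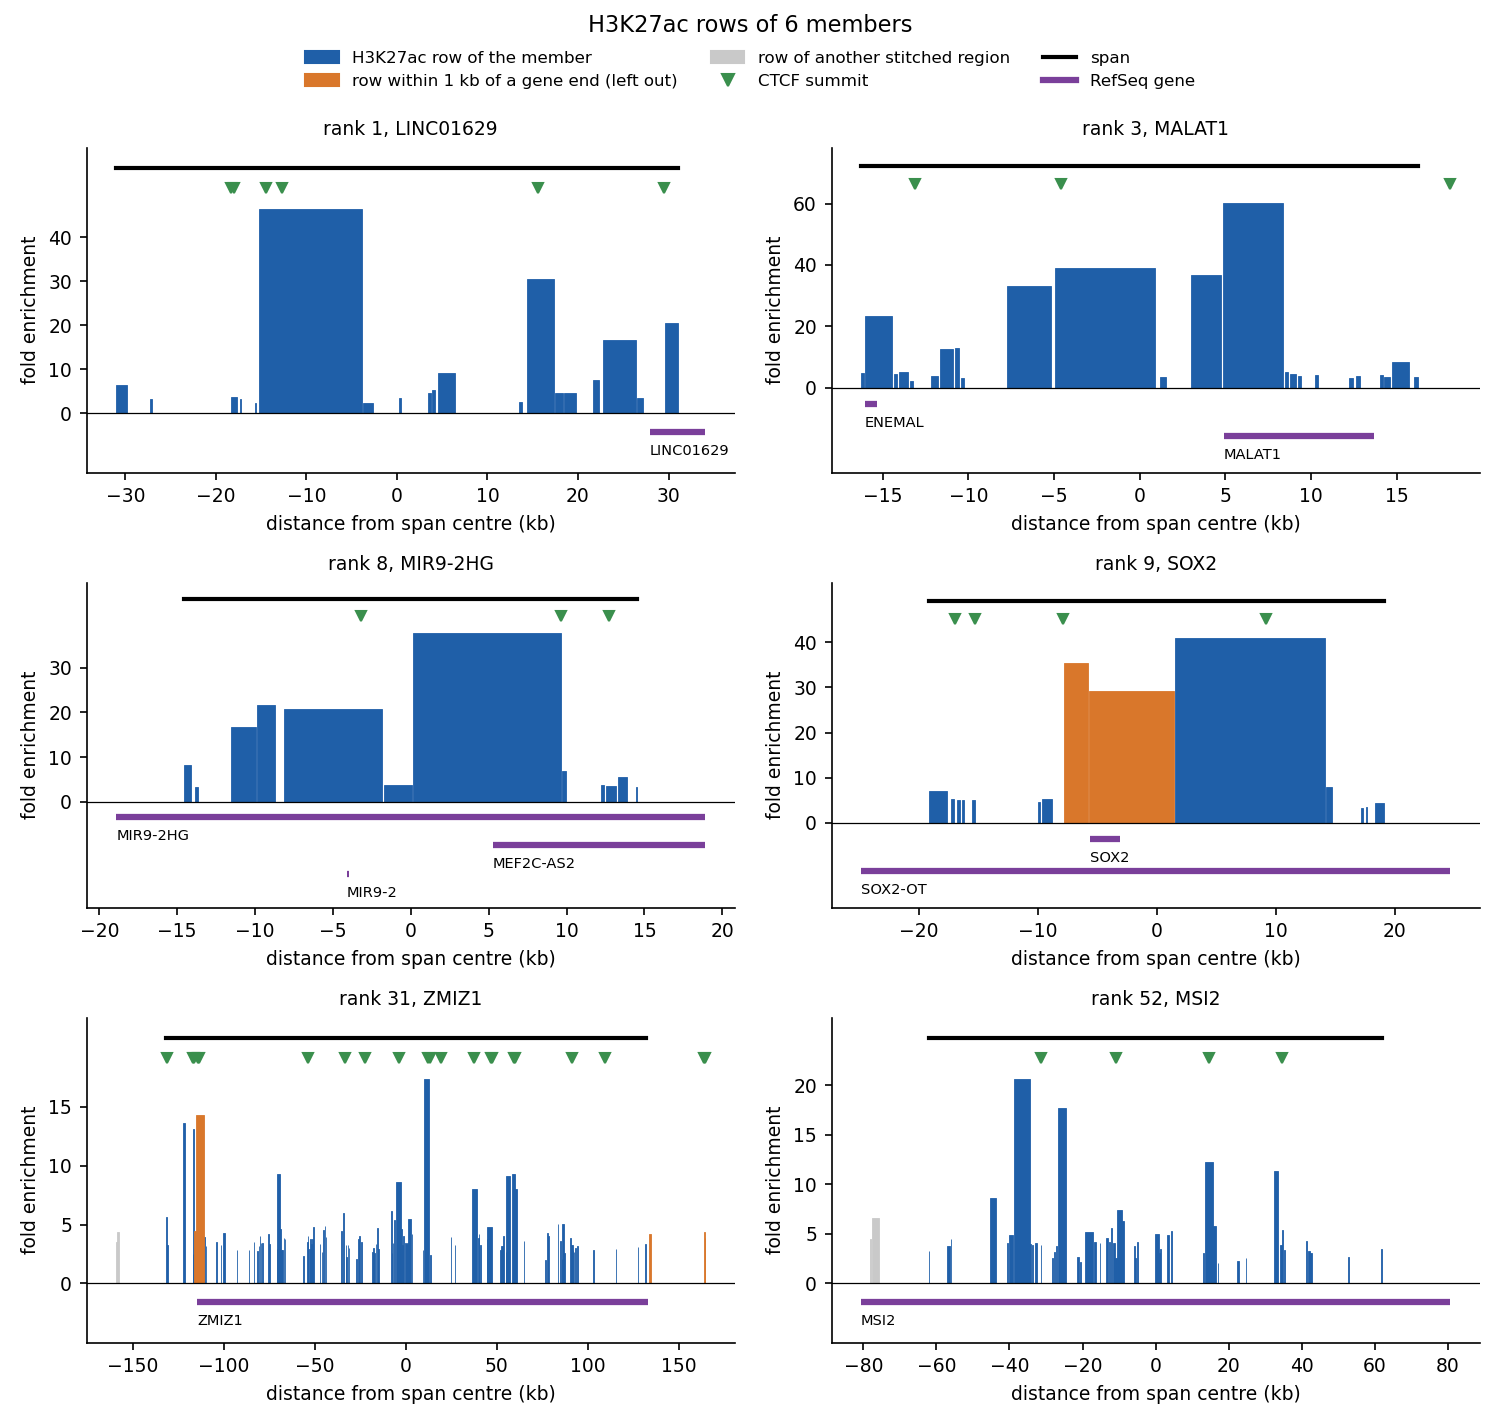
Rows of 6 members by distance from the span centre (kb), with bar height the fold enrichment and bar width the row's width; blue rows belong to the member, orange rows lie within 1 kb of a protein-coding gene end and were left out, grey rows belong to other stitched regions, triangles are CTCF summits and purple lines are a selection of RefSeq genes. SOX2 and LINC01629 show 1 dominant wide row, while ZMIZ1 and MSI2 show many narrow rows, of which ZMIZ1 has 107.

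Across the members, the number of rows ran from 1 to 107 with a median of 8, and the span from 1.61 to 263.5 kb with a median of 22.2 kb. Rows covered a median of 36.2% of the span. The highest fold enrichment in a member ran from 11.7 to 98.1, with a median of 30.3. The other 24020 stitched regions had medians of 2 rows, a span of 1.02 kb and a signal sum of 3.11. The typical single row was of similar strength in members and elsewhere. The median fold enrichment was 4.50 over the 5252 rows of members and 4.32 over the other kept rows. A false discovery rate (q) above 0.05 was listed for 399 member rows (7.60%) and for 8.29% of the other rows.

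The signal sum was concentrated. The strongest row held a median of 70.9% of it, over 50% in 362 members and over 80% in 204 members. In the 67 members with 20 or more rows, the median share of the strongest row was 34.3%, and in members of 2 to 19 rows it was 74.0%. The lowest share, 14.3%, was in ZMIZ1, a transcriptional coactivator gene (rank 31, chr10:79051816-79315300), which had the most rows (107), the longest span (263.5 kb) and a highest fold enrichment of 17.4. GSE1, a gene of a histone deacetylase complex (rank 16, chr16:85553274-85674380), and FYN, a Src-family kinase gene (rank 23, chr6:111661511-111794143), followed with 55 rows each. FYN and the MSI2 member of rank 52 had the next longest spans, 132.6 and 124.1 kb.

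At the other extreme, the highest fold enrichments came from short members. The member of rank 180 (chr9:128654944-128657861) in DYNC2I2, a dynein gene, reached 98.1 in 3 rows, and that of rank 136 (chr22:31488992-31491124) in EIF4ENIF1, a gene of an mRNA-repression protein, was 1 row of 84.0. Rows at annotated starts of these genes made up 99.4% and 100% of the 2 signal sums. The member of rank 43 (chrX:52920113-52935735), 11.5 kb from FAM156A, reached 75.9. FAM156A has a near-identical neighbour, so reads there may not have been placed uniquely. The lowest covered share, 9.61%, was in the member of rank 427 (chr12:52050574-52083293), which overlaps ATG101, NR4A1 and SMIM41.

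**Figure D3:**
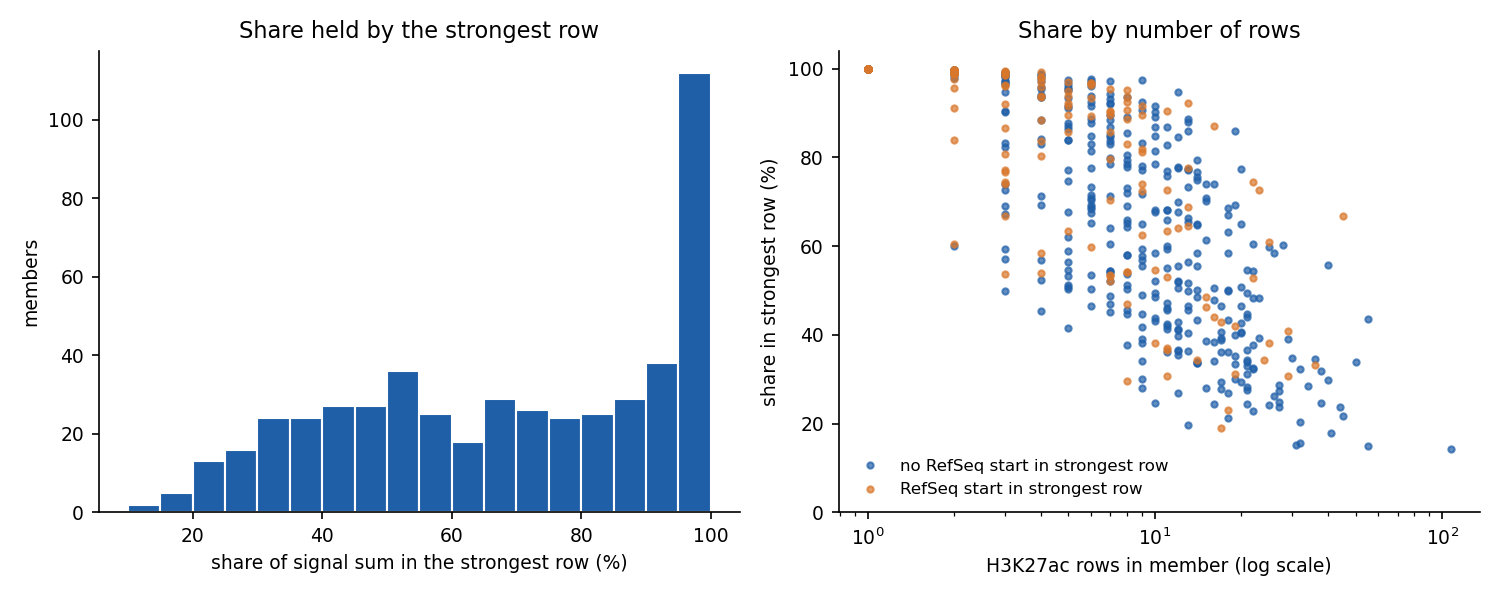
Left, number of members by the share of their signal sum held by the strongest row (%). Right, that share against the number of rows (log scale), 1 point per member, orange where the strongest row holds a RefSeq start (141 members) and blue where it does not (359 members). Members of few rows reach 100%, and ZMIZ1 with 107 rows is lowest at 14.3%.

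Relative to genes, 377 members (75.4%, 71.4 to 79.0%) overlapped a protein-coding gene, against 57.1% of the other stitched regions and 65.0% of ranks 501 to 1000. Longer spans meet more genes, and the share was not matched on span. Of the 123 members in no protein-coding gene, 80 overlapped a gene of a long noncoding RNA (lncRNA) and 43 did not. Their median distance to the nearest protein-coding gene was 31.6 kb and the largest was 660 kb, with 38 over 100 kb away. A lncRNA gene was overlapped by 229 members (45.8%, 41.5 to 50.2%), by 20.5% of the other regions and by 36.0% of ranks 501 to 1000 (31.9 to 40.3%).

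The rule removes rows at the outer ends of genes, but not rows at starts inside a gene or at lncRNA starts. A start counts as lying in a row where its RefSeq promoter window overlaps the row. Such a start was found in 219 members (43.8%, 39.5 to 48.2%), against 8.48% of the other regions and 31.8% of ranks 501 to 1000. A start of a protein-coding gene was in 129 members (25.8%), against 5.22% of other regions and 20.6% of ranks 501 to 1000. A lncRNA start was in 118 members (23.6%), against 3.95% and 16.2%. Rows with a start held 26.1% of the members' summed signal, and a median of 70.4% within the members that had one. The span of 84 members (16.8%, 13.8 to 20.3%) ran across rows left out at gene ends, against 2.56% of other regions and 9.80% of ranks 501 to 1000. These shares were not matched on span. The most such rows, 17, were at MIDN and STK11 (rank 81, chr19:1207248-1286828). In 233 members there was neither a start nor such a row, a count that was not made for other regions.

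By chromosome, the share of stitched regions that were members ran from 0.958% on chromosome 18 (6 of 626) to 3.40% on chromosome 17 (32 of 942). Another member lay within 200 kb of 127 members, which formed 60 groups. The same count was not made for other stitched regions. The largest group was 5 members over 581 kb of chromosome 15, at CHD2, a chromatin remodeller gene, and RGMA, a gene of a repulsive guidance molecule. The next was 4 members over 366 kb of MSI2, which encodes an RNA-binding protein of neural progenitors. Groups of 3 lay at FYN and TRAF3IP2 and at RPN2 and SRC.

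A member was assigned to each protein-coding gene it overlapped, or to the nearest gene where it overlapped none. This gave 546 of 19974 genes (2.73%) a member, and 330 of 6258 genes of at least 50 kb (5.27%). Genes overlapped by a member had a median length of 97.0 kb, against 24.2 kb for all protein-coding genes. MSI2 had 4 members (ranks 38, 52, 57 and 82) with a joint signal sum of 1059. CHD2 had 3 (ranks 21, 86 and 381), RGMA had 3 (ranks 49, 86 and 378), of which rank 86 is shared, and the predicted gene LOC124901498 had 3, each over 200 kb from it. SOX2 had 2, the region around it (rank 9) and one 521 kb away (rank 110, chr3:182235495-182244993). GSE1 (ranks 16 and 162) and FOXK1, a forkhead factor gene (ranks 62 and 68), had 2 each.

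Lists of genes of neural and other lineages were read against the 2.73% of all genes. Over the 298 listed genes found in the table, 44 (14.8%, 11.2 to 19.2%) had a member. Transcription factors that pattern the brain had the highest share, 15 of 39 (38.5%, 24.9 to 54.1%). Ordered by signal sum, they were led by POU3F3 (465), ZIC4 (317), POU3F2 (294), NR2F1 (289), ZFHX3 (276) and NFIA (267 over 2 members). POU3F2 and POU3F3 are POU-domain factors of upper-layer and progenitor cells, NR2F1 sets cortical areas, and NFIA directs the switch from making neurons to making glia. GLI3 (224 over 2 members), NFIB (193) and GLI2 (184) followed, GLI2 and GLI3 being the effectors of Hedgehog signalling. Others with a member were NFIX, IRX5, NR2F2, ZIC1 and ID4.

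Neural progenitor and radial glia genes had a member in 6 of 18 cases (33.3%, 16.3 to 56.3%). They were SOX2 (738 over 2 members), PTPRZ1, a receptor phosphatase of radial glia (332, from a member 71.9 kb away), NOTCH1, the receptor that keeps progenitors undifferentiated (294 over 2 members), SOX1 (190, from a member 30.2 kb away), FABP7 (114) and MSI1 (105). Counting a gene only where a span overlaps it left 3 of 18. Of the chromatin and growth regulators, 6 of 21 had one (28.6%, 13.8 to 49.96%), among them KLF7 (466), AUTS2 (258), SMARCA2 (138), MYCN (103) and MYC (102), and 3 of 21 by span overlap alone.

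Axon guidance and adhesion genes had a member in 5 of 34 cases (14.7%, 6.45 to 30.1%), and this list's genes are long, with a median of 322 kb. They were CDH4 (150), EPHB2 (125), SLIT1 (122), NRP2 (116) and ROBO1 (102), genes of a cadherin, an ephrin receptor, a guidance ligand and 2 guidance receptors. Of the matrix, cytoskeleton and TEAD/YAP-associated genes, 4 of 28 had one, namely TEAD1 (233), FLNA (118), MYH9 (113) and WWTR1 (110). Of the signalling genes, 4 of 36 had one, namely the Wnt receptor gene FZD3 (240), BMP7 (199), FGFR1 (160) and AXIN2 (115). For these 2 lists the shares were 14.3% (5.70 to 31.5%) and 11.1% (4.41 to 25.3%).

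**Figure D4:**
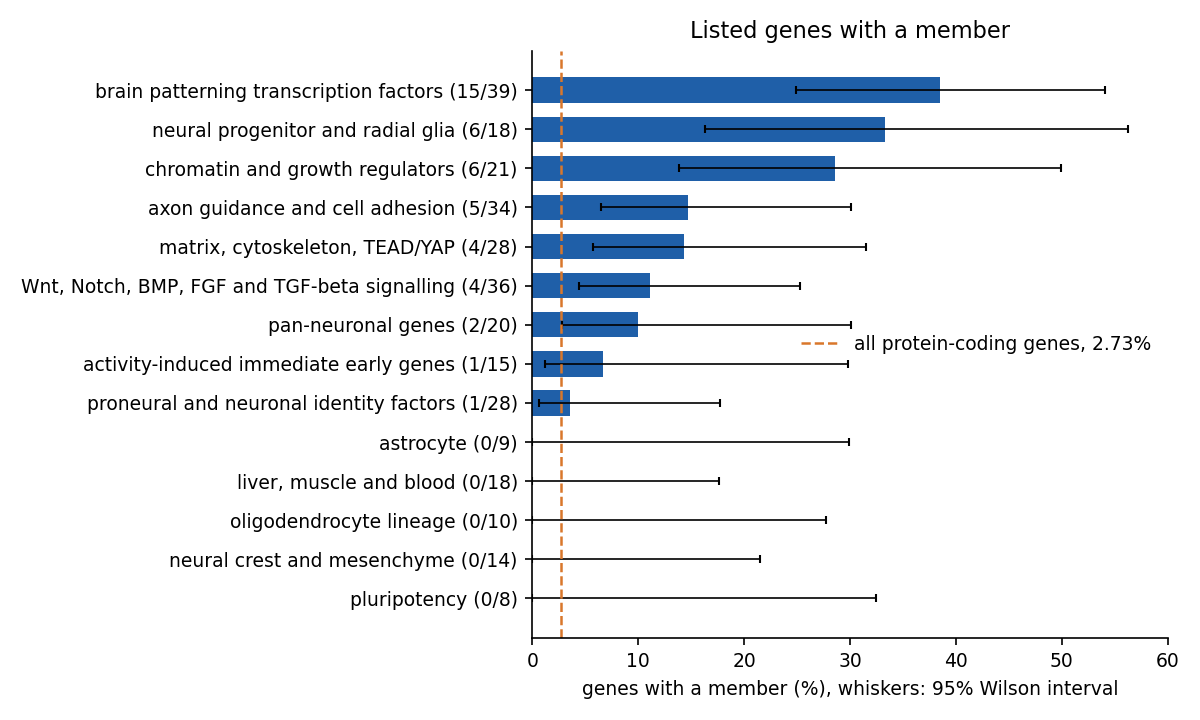
Share of the genes of each list that had a member (%), with 95% Wilson intervals and the number of genes in brackets. The dashed line is the share of all protein-coding genes, 2.73%; brain patterning transcription factors lead with 15 of 39, and 5 lists have 0.

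Pan-neuronal genes had a member in 2 of 20 cases (10.0%), with an interval, 2.79 to 30.1%, that starts next to the share of all genes. These were DLG4, a postsynaptic scaffold gene (172), and MAP2, a dendritic microtubule protein gene (152), in each case with an annotated start of the gene in a row. Those without a member included GAP43, TUBB3, DCX, ELAVL4, NEFL, SYT1, NCAM1, ANK3, STMN2, CELF4, SNAP25, MAPT, RBFOX3, NEFM, RBFOX1, ELAVL3 and SYN1. All 20 had at least 1 stitched region of lower or higher rank, against 9706 of all 19974 genes. The same held for all 34 axon guidance genes and all 21 chromatin and growth regulators, while every other list had genes without a region. These counts were not matched on gene length. The best regions of GAP43 and TUBB3 ranked 566 and 629, and that of SYN1 ranked 20252. Starts in rows were not particular to this list. The strongest row of a member also held a RefSeq start at ZIC4, ZFHX3, NFIA, NFIB, IRX5 and NR2F2 among the patterning factors. The same was true at SOX1 and FABP7 (progenitor), KLF7, AUTS2 and SMARCA2 (chromatin and growth), CDH4 and ROBO1 (axon guidance) and WWTR1 (matrix). In these cases a start of any protein-coding or lncRNA gene counts, not only one of the listed gene. The SOX1 member, for instance, does not overlap SOX1. The other members of these lists, and those of the signalling list, had no start in their strongest row.

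Proneural and neuronal identity factors had a member in 1 of 28 cases (3.57%, 0.633 to 17.7%), SOX11, with 2 members of which the stronger (rank 322) lay 274 kb away. The count was 3 without rows near RefSeq starts, 6 for the top 1000 regions and 0 for the top 250. Regions between ranks 501 and 1000 lay at or nearest to DLX1, DLX2, SOX4, EBF1 and BCL11A. Lower regions lay, among others, at MYT1L, INSM1, DLX5, DLX6, CUX1, ONECUT2, BCL11B, EBF3, NEUROD1, CUX2, FEZF2, EOMES, ISL1 and TBR1. NEUROG1, NEUROG2, NEUROD2, NEUROD4, NEUROD6 and LHX6 had no stitched region. Here and below, having no region is not an absence of H3K27ac, because rows within 1 kb of gene ends were left out. Among activity-induced immediate early genes 1 of 15 had a member, NR4A1 (103), in the region of rank 427 where rows at a start of ATG101 made up 93.7% of the signal sum. DUSP1 (rank 571) and FOS (rank 720) were next. JUN, ATF3, ARC, FOSB, JUND, NR4A2, EGR2 and NPAS4 had lower regions, and FOSL2, JUNB, EGR1 and EGR3 had none.

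No member was assigned to any gene of 5 other lists. With so few genes, 0 of 9 allows a share of up to 29.9% by the Wilson interval. Astrocyte genes (0 of 9) were best represented by CLU at rank 1122, ahead of ALDH1L1, GJA1, SPARCL1, AQP4, SLC1A2 and S100B, while GFAP and APOE had no region. The best of the oligodendrocyte genes (0 of 10) was MBP at rank 10574. OLIG2, OLIG1, PDGFRA and MOG were lower, and SOX10, CSPG4, MAG and NKX2-2 had no region. Neural crest and mesenchyme genes (0 of 14) were led by PDGFRB at rank 1233 and ACTA2 at rank 2263. PRRX1, TFAP2A, TWIST2, COL1A1, PAX3, TFAP2B, TBX2, FOXD3 and TBX3 were lower, and TWIST1, SNAI2 and LUM had no region. Pluripotency genes (0 of 8) were led by SALL4 at rank 2763, followed by DPPA4, ZFP42, POU5F1, LIN28A and PRDM14, with none for NANOG and L1TD1. Of the liver, muscle and blood genes (0 of 18), only PTPRC (rank 637), MYH7 (rank 1553) and ACTC1 (rank 16606) had a region. Those with none included ALB, APOA1, APOB, FGA, TTR, HNF4A, MYH6, TNNT2, CKM, MYOD1, MYOG, HBB, CD3E and GATA1.

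Over the genes of each list, the median signal sum of a gene's best region was 66.9 for progenitor genes and 65.0 for patterning factors, against 23.6 for pan-neuronal genes and 14.8 for identity factors. The medians were 8.86 for astrocyte genes, 1.46 for oligodendrocyte genes and 1.98 for pluripotency genes. Over all protein-coding genes the median was 0, since 10268 of them had no stitched region. Median gene lengths were 29.2 kb for progenitor genes, 79.1 kb for patterning factors, 126 kb for pan-neuronal genes and 9.29 kb for identity factors. The signal sums were not matched on gene length, whose part in them was not tested.

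The CTCF list was not used to choose the members. A CTCF row overlapped 351 of the 500 spans (70.2%, 66.0 to 74.0%), against 19.9% of the other stitched regions and 54.4% of ranks 501 to 1000. A longer span meets more CTCF rows, so regions were compared within 4 span classes cut at the quartiles of the member spans. From 1.61 to 10.3 kb the shares were 53.6% (44.9 to 62.1%) in members and 26.6% (25.5 to 27.8%) in the others. From 10.3 to 22.2 kb they were 71.2% (62.7 to 78.4%) and 43.7% (41.6 to 45.8%). From 22.2 to 41.5 kb they were 69.6% (61.1 to 77.0%) and 64.5% (60.2 to 68.6%), and above that 86.4% (79.3 to 91.3%) and 81.4% (69.6 to 89.3%). The intervals were apart in the 2 shorter classes and overlapped in the 2 longer ones. The classes did not fully match span: members had the longer median in each, 4.72 against 3.47 kb, 15.5 against 13.4 kb, 30.9 against 26.9 kb and 54.8 against 51.0 kb.

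Per length, member spans held 6.16 CTCF summits per 100 kb (5.76 to 6.58), near the 5.91 (5.74 to 6.07) of the other spans and the 6.23 (5.67 to 6.82) of ranks 501 to 1000. Within each of the 4 span classes the members had the higher density. In the shortest class it was 15.1 (12.3 to 18.4), against 6.79 (6.49 to 7.11). In the next it was 7.69 (6.51 to 9.02), against 4.49 (4.26 to 4.73), and in the third 5.46 (4.75 to 6.24), against 4.33 (3.99 to 4.69). In the longest it was 5.39 (4.89 to 5.93), against 4.36 (3.67 to 5.15), the one class in which the intervals overlapped. The density also differed between rows and gaps. Member rows held 11.7 summits per 100 kb (10.7 to 12.7), against 9.45 (9.08 to 9.83) in other rows. The gaps between member rows held 3.52 (3.15 to 3.91), against 4.29 (4.13 to 4.47) in the gaps of other regions. Flanks of the same length on either side of each member held 3.13 and 3.27, close to the gaps. Along the span, the density was highest at the 2 ends, 8.50 and 7.80 per 100 kb, and lowest just past the middle, 4.95. A span begins and ends with a row by construction, so its outermost parts always hold one.

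Among the members, 149 had no CTCF row, 129 had 1, 91 had 2 and 47 had 5 or more. The most were 19 in ZMIZ1, 18 in the gene-dense region of MIDN and STK11 (rank 81) and 12 in GSE1. Members with an annotated start overlapped a CTCF row in 76.7% of cases (70.7 to 81.8%) and those without in 65.1% (59.4 to 70.5%), with median spans of 21.4 and 23.2 kb. The CTCF peaks in member rows had a lower median signal than the rest of the list. On the list's own signal scale, whose unit is not stated, the median was 64.1 for the 719 CTCF rows that overlap member rows. It was 90.1 for those in other stitched rows and 91.0 for all CTCF rows. Rows of exactly 800 bp, a recurrent width in the list, made up 44.2% of the first set and 37.5% of the second, and their part in this difference was not tested.

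**Figure D5:**
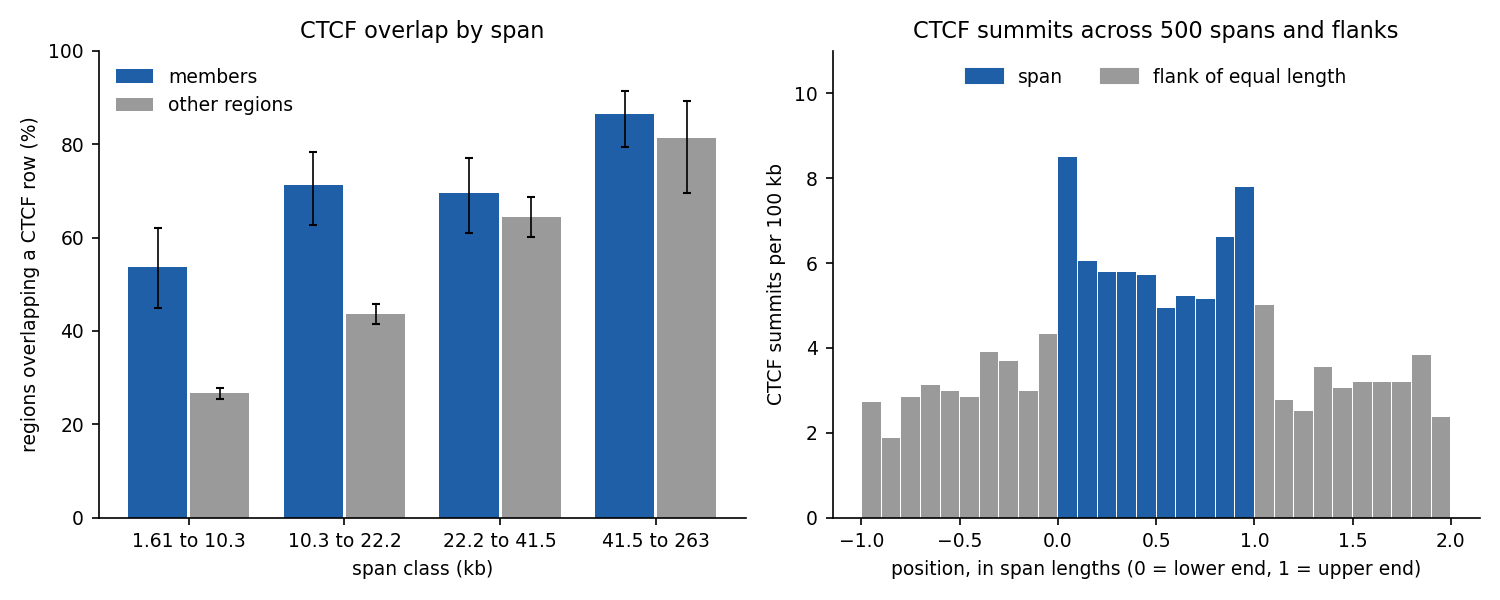
Left, share of regions that overlap a CTCF row (%) in members and other stitched regions by span class, with 95% Wilson intervals. Right, CTCF summits per 100 kb in 10 equal parts of the 500 member spans (blue) and of flanks of equal length (grey), highest in the outermost parts of the span, at 8.50 and 7.80.

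At MAPT, the gene the study is about, no member was found. Of 25 stitched regions within 1 Mb of the gene, 1 was a member (rank 175, chr17:46190503-46194943, signal sum 160, fold enrichment 52.2), in KANSL1, a gene of a histone acetyltransferase complex. Rows at annotated KANSL1 starts made up 98.0% of its signal sum. The regions in MAPT itself ranked 6104 (chr17:45896825-45906715, 3 rows, signal sum 10.8, fold enrichment 8.74) and 18537 (chr17:46003698-46004579, signal sum 1.09). Neither overlapped a CTCF row. Any row within 1 kb of either end of MAPT was left out by the rule, so these ranks do not cover the gene ends. The next highest nearby were rank 935 in NSF and LRRC37A2 (66.0), rank 2159 at WNT3 and LRRC37A2 (34.5), rank 2337 in no protein-coding gene (32.0) and rank 2562 in DCAKD (29.1). LRRC37A2, NSF and KANSL1 lie in a stretch with duplicated copies, where reads may not have been placed uniquely. The other 18 ranked between 3474 and 22307, at or between genes that include NMT1, HEXIM2, LRRC37A, GOSR2, ACBD4, PLCD3, MAP3K14 and DNAAF19.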

How the data were processed

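ChIP-seq libraries of H3K27ac (2), CTCF (2) and input (2) came from neurons of the line KOLF2.1J. The authors deposited 1 peak list per antibody for both replicates, with 0 columns of per-sample values. Build hg38 and cutadapt 1.16 are named in the submitters' processing notes. The aligner and the peak caller are not given in the sources used here. The deposited H3K27ac list holds a fold enrichment per row, read as a ratio from its values and layout. The deposited CTCF list holds a signal value of unstated scale. Both deposited lists hold −log10 q values, and a display score by the authors that entered no result.

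The members and the gene lists were chosen with earlier results of these data known, and the lists support nothing by themselves. Rows within 1 kb of a protein-coding gene end (RefSeq GRCh38.p14) were left out, rows with gaps of at most 12.5 kb were stitched, and the 500 highest signal sums on 23 chromosomes were taken, with Python 3.11.15, pandas 2.3.3, numpy 2.4.6 and scipy 1.17.1. Overlap meant at least 1 shared bp. Stitching, overlap and density code was tested on simulated regions. Regions named are the 10 highest, 3 on either side of rank 500, extremes of rows, span, fold enrichment, CTCF rows and covered share, and all within 1 Mb of MAPT. Genes named are the 8 with most members and up to 6 per list, with genes lacking a member for lists with under 4 found. A few genes that this rule names are not reported here. Further ranks and microRNAs were named after their values were seen. Alternatives covered stitching gap, gene-end distance, score, rows used, number of members, CTCF list and gene assignment.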

Additional observations from a re-analysis of the deposited data

How the results depend on the processing

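No paired analysis was possible because each list pools both replicates, and for the same reason no replicate could be left out. Of the main 500, 351 to 491 were shared under most other choices of gap, distance, row filter and weighting. Fewer were shared with no exclusion at gene ends (245), with widths alone (299), with the highest fold enrichment (252) and with the signal sum divided by span (110). Lists of 250 or 1000 contain or are contained in the main list by construction. The share of signal held, 27.4%, was 23.5% with 5 kb gaps, 30.6% with 20 kb gaps, 27.4% with q under 0.05, 28.3% at 2.5 kb from gene ends and 28.1% without rows near RefSeq starts. The last setting and merged CTCF rows were chosen after seeing the data. The share with CTCF, 70.2%, was 58.4% for a summit inside a row, 45.4% with the strongest 50% of CTCF rows and 57.6% without 800 bp rows. It was 78.8% for the top 250, 62.3% for the top 1000, 55.0% with 5 kb gaps, 65.8% at 2.5 kb from gene ends and 63.6% without rows near starts. CTCF density, 6.16 per 100 kb, was 2.38 with the strongest 50%, 3.38 without 800 bp rows, 5.50 with merged rows and 5.31 without rows near starts. Its ratio to other regions, 1.04, was 1.37 against the same span classes and 1.92 against flanks, and 0.989 against ranks 501 to 1000. The share in protein-coding genes, 75.4%, was 70.2% for the top 1000, 67.6% with 5 kb gaps, 71.4% at 2.5 kb and 69.2% without rows near starts. The share of listed genes, 14.8%, was 8.39% for the top 250 and 24.5% for the top 1000, where the shares of all genes were 1.46% and 4.86%. With genes assigned by an end within 100 kb of the span it stayed at 14.8% while the share of all genes rose from 2.73% to 7.45%. For the shorter or longer member lists and the thinned CTCF lists, fewer or more regions or rows entered. For the others the cause was not tested. For the gene lists with a member, 38 of 54 alternatives stayed within 1.5 times the count given, and a list at 0 has no such range. Axon guidance genes had 1 and 11 genes for the top 250 and 1000, and 3 by an end within 100 kb. Pan-neuronal genes had 1 by that assignment and without rows near starts, and 4 for the top 1000. Matrix genes had 1 for the top 250, signalling genes 7 by an end within 100 kb, and immediate early genes 0, 3 and 2 for the top 250, the top 1000 and that assignment. Liver, muscle and blood genes had 1 for the top 1000 and without rows near starts. Brain patterning factors had between 10 and 20 genes under every alternative tried, with 11 without rows near RefSeq starts. Depth is unknown, so no limit on weak regions can be given.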
